A study of Mus musculus with 2 samples.

Results

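The genes described here encode catalytic subunits of calcineurin (Ppp3ca and Ppp3cb), transcription factors of the NFAT family (Nfatc1, Nfatc2 and Nfatc3) and calcium/calmodulin-dependent protein kinases (Camk2a, Camk2b, Camk2d, Camk2g and Camk4). They were found on the arrays by accession (19 probes) or symbol (7 probes). This gave 26 probes of 10 genes among 41174 probes, and all 10 were among the 14921 genes tested. Camk2b had been picked by its high log2 ratio on these same 2 arrays, and the other 9 are genes of the same pathway, so the values of Camk2b are given as a description without a test.

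Double-positive (DP) thymocytes, the stage that carries both CD4 and CD8, of 2 genotypes were set against each other on 2 Agilent mouse arrays read in 2 colours. The Bcl11b-deficient sample of each array came from Bcl11bF/FCD4Cre/Tcra-/- mice, with a floxed Bcl11b gene, Cre recombinase under CD4 control and no T cell receptor alpha chain. The control sample came from TCRa-/- mice, which share the lack of the alpha chain, so that the DP cells of both genotypes had not met selection. The arrays are labelled biological replicates 1 and 2, the mice carried no treatment, and age is not given. The control label names neither Cre nor the floxed gene, so an effect of Cre and of loss of Bcl11b cannot be told apart. Deficient RNA was read in Cy5 and control RNA in Cy3 each time, so a dye effect of single probes cannot be told apart from genotype either. The number of mice behind a sample and the way DP cells were chosen are not given, and p-values then measure only the spread between these 2 arrays, which also sets the limit on precision.

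In T cells a signal from the antigen receptor raises calcium in the cytosol, and calcium bound to calmodulin switches on the phosphatase calcineurin. Calcineurin takes phosphate off NFAT proteins, which then enter the nucleus, and the CaM kinases are switched on by the same calcium-calmodulin signal. In the thymus this pathway is best known for its part in positive selection, the step that Tcra-/- cells do not reach.

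The promoter windows of the member with the highest ratio, Camk2b, and of the member with the next highest, Nfatc2, are printed 5′ to 3′ so that the sequence in front of these genes can be seen beside their values. They are RefSeq windows on the GRCm38.p6 build, from 250 bases before to 50 bases after a transcript's start, and 5 of the 10 genes had 7 such windows. Capitals mark GGAAA and its reverse complement TTTCC, the core that NFAT proteins are known to bind. The Camk2b window lies at chr11:6065699-6065998 on the minus strand, and the Nfatc2 windows at chr2:168601608-168601907 and chr2:168590316-168590615, also on the minus strand.
Camk2b: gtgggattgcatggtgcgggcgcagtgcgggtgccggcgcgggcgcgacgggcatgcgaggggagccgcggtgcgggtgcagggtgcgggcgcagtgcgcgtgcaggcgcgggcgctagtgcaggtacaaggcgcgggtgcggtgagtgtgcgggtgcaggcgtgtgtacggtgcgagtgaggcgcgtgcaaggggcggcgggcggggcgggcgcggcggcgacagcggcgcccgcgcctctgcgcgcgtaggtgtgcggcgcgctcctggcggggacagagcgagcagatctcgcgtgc
Nfatc2, upstream start: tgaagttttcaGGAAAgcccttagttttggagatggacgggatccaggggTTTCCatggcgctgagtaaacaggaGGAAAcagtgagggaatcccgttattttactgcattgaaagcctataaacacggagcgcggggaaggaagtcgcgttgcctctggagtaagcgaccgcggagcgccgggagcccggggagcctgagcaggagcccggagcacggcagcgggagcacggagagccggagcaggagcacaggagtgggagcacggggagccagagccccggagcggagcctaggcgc
Nfatc2, downstream start: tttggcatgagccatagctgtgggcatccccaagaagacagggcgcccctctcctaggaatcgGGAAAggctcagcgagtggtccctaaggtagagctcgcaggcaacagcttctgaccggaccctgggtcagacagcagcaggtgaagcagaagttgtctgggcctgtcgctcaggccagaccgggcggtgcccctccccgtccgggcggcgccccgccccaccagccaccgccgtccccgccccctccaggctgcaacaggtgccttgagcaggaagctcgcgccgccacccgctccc
The Camk2b window held no GGAAA or TTTCC and 51 CG dinucleotides, a number that 0.715% of 32851 promoter windows of this length reach. The upstream Nfatc2 window held 2 GGAAA and 1 TTTCC with 23 CG dinucleotides, and the downstream one 1 GGAAA with 20. On either strand this core was present in 61.3% of all windows, so a match or its absence in 1 window is common. TGACCA, a motif known for the human relative BCL11A, was in none of the windows printed and in 13.6% of all windows, counting its reverse complement TGGTCA. These are descriptions of letters in a window, and no binding was measured here.

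Well above background were between 50.5% and 56.5% of spots in the deficient channel and between 50.6% and 51.7% in the control channel. Values below are log2 ratios of deficient over control after background correction and loess normalisation within each array, and a gene is represented by its brightest probe that was well above background. Their SE is moderated by limma over all genes, with n = 2 arrays, and p-values are adjusted over all 14921 genes. In limma's test no gene passed the adjusted threshold of 0.05, although 4361 had an unadjusted p under 0.05. The separate-channel model, which treats the channels of an array as correlated samples (correlation 0.379), called 1277 genes on the same 2 arrays. Bcl11b itself was lower on both arrays by both its probes, at -1.40 and -0.28 for the brighter one (mean -0.84 ± 0.31, limma adjusted p = 0.187) and -1.37 and -2.16 for the other. Markers of DP thymocytes were well above background in both channels for 10 of 10 genes, and their median log2 ratio was -0.26. Of the 10 markers, 2 read higher on both arrays, against 36.4% of all genes tested, and 8 lower, against 38.5%.

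Of the 10 genes, 6 read higher in the deficient cells on both arrays, against 36.4% of all genes tested, and 2 read lower on both, against 38.5%. Without Camk2b the counts were 5 higher, 2 lower and 2 of opposite sign among 9 genes. The median log2 ratio of the 9 was 0.17, at 0.098 on replicate 1 and 0.15 on replicate 2, and that of all genes tested was -0.0035. None of the 9 was 2-fold changed on both arrays, a size that 0.818% of all genes reached as higher and 0.275% as lower. In limma's test 0 of the 9 passed, as 0.0% of all genes did in either direction, with adjusted p from 0.0855 to 0.982. At an unadjusted p under 0.05 there were 2 higher (Nfatc2 and Nfatc1), against 15.1% of all genes, and 1 lower (Ppp3ca), against 14.1%. The separate-channel model called Nfatc2 and Nfatc1 as higher and none of the 9 as lower, against 4.74% and 3.82% of all genes. With the processed signals of the scanner software none of the 9 passed, against 0.496% of all genes called higher and 0.389% called lower. These are bulk samples, in which a lower value from fewer cells of a type and from less RNA per cell cannot be told apart.

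**Figure D1:**
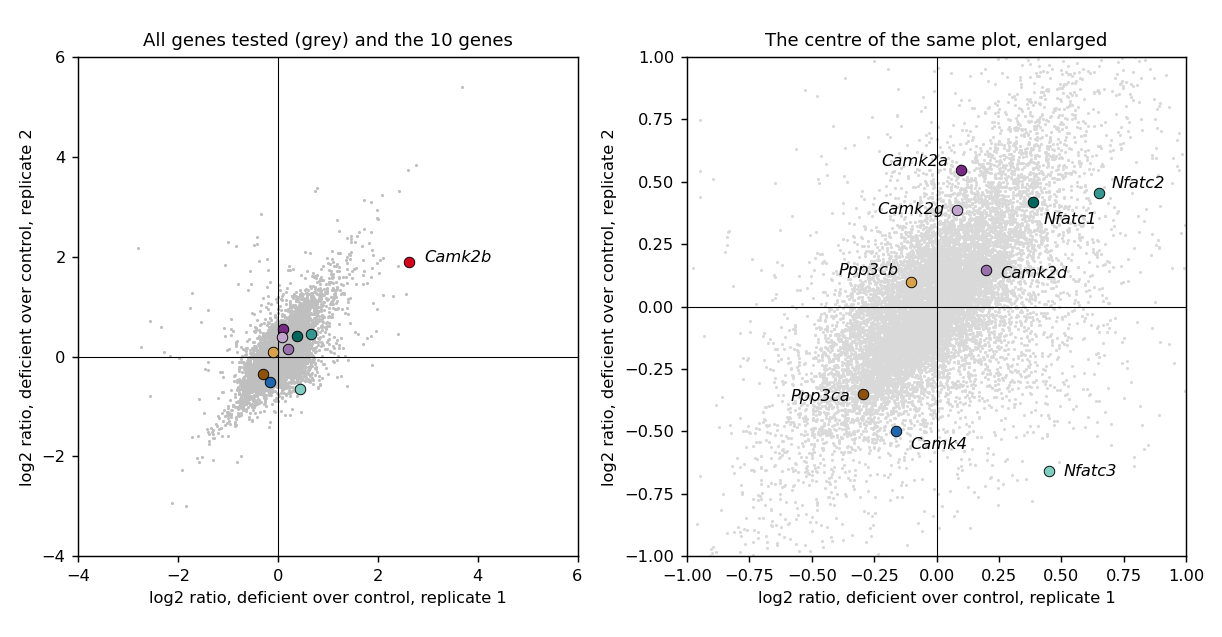
Log2 ratio of deficient over control on replicate 1 (x axis) against replicate 2 (y axis) for all 14921 genes tested (grey) and the 10 genes (coloured), with the centre enlarged on the right. Camk2b lies apart from the other 9, Nfatc1, Nfatc2, Camk2a, Camk2d and Camk2g lie above 0 on both arrays, Ppp3ca and Camk4 below 0 on both, and Nfatc3 and Ppp3cb on opposite sides.

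The scatter of the 2 arrays places Camk2b at the edge of the cloud of genes and the other 9 inside it. Nfatc3 lies away from the diagonal, where the arrays disagree.

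All probes were examined, since single probes can differ. Of the 26, 21 were well above background in 1 genotype on both arrays and 5 were not. Among the 21, 9 read higher in the deficient cells on both arrays, 6 lower on both and 6 of opposite sign. The 9 include the Camk2b probe that was picked for its ratio. Over all genes tested, each read by its brightest probe, the shares were 36.4% higher and 38.5% lower. Shares over all kept probes were not taken, so these probe counts are a description only. For 5 of the 6 genes with more than 1 such probe, the mean ratios of all these probes had the same sign, and Ppp3cb was the exception. None of the spots was saturated in the deficient channel. The brightest probe was well above background in all 4 channels for each of the 10 genes.

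**Figure D2:**
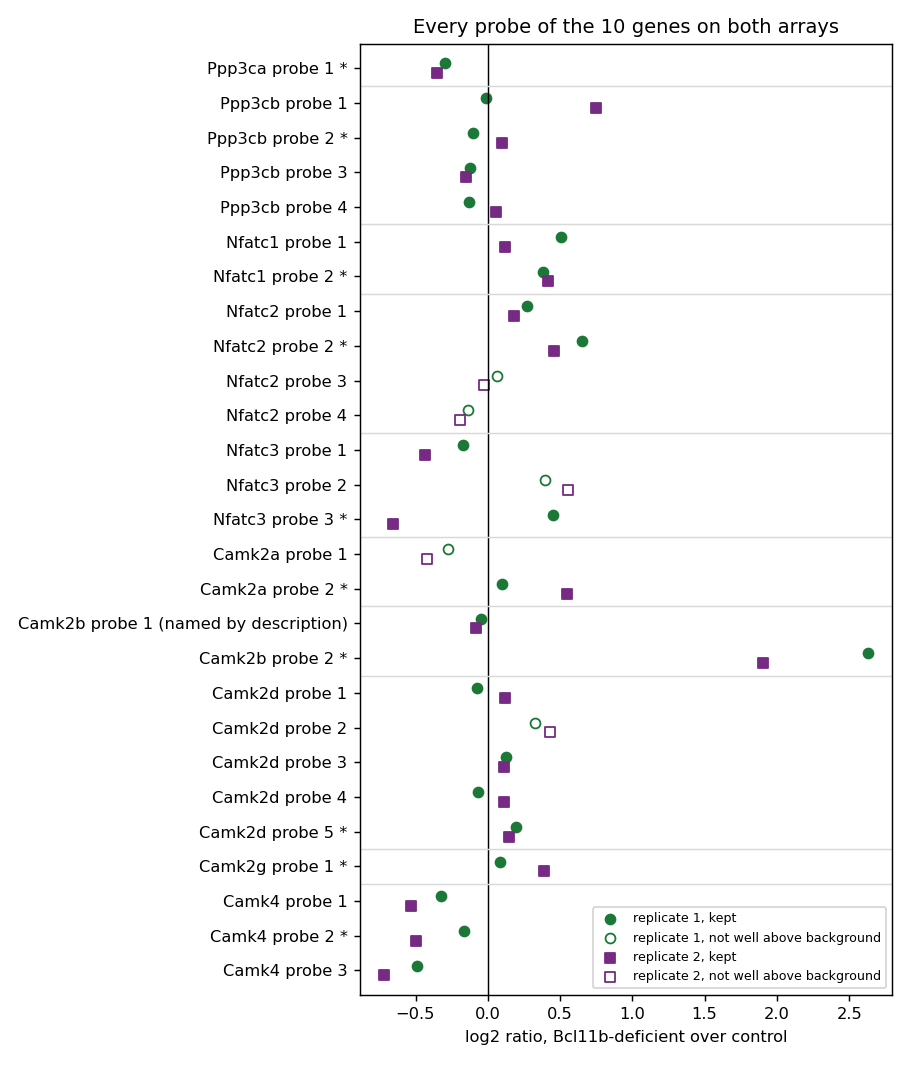
Log2 ratio of deficient over control (x axis) for each probe of the 10 genes, numbered from 5′ to 3′ along the gene, on replicate 1 (circles) and replicate 2 (squares), with open symbols for probes not well above background and an asterisk on the probe used for the gene. One Camk2b probe reads 2.63 and 1.90 and the other, named by its description, -0.048 and -0.081, and the 3 Camk4 probes lie below 0 on both arrays.

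The plot of single probes shows that the 2 Camk2b probes part by more than those of any other of the 10 genes. It also shows that the probes of Camk4 stay on one side of 0 and those of Ppp3cb do not.

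Calcineurin is represented by the genes of its alpha and beta catalytic subunits. Processed signals, given for each sample, are the intensities that the scanner software corrected for background and dye, and they are compared within a probe only. Ppp3ca, the alpha subunit, had processed signals of 1221.6 and 830.6 in the deficient samples of replicates 1 and 2, against 1536.3 and 1084.3 in the control samples. The deficient sample was the lower one on each array, while the groups overlapped, with replicate 2 dimmer in both. The log2 ratio was -0.29 and -0.35 and averaged -0.32 ± 0.07 (limma adjusted p = 0.108). Its only probe lies on chromosome 3 at 136872888 to 136872948 of the mm8 build. In the separate-channel model the adjusted p was 0.227.

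Ppp3cb, the beta subunit, had 4773.3 and 5358.7 in the deficient samples, against 5122.9 and 4963.3 in the control samples. The groups overlapped, and the deficient sample was lower on replicate 1 and higher on replicate 2. The brightest probe, on chromosome 14 at 19296466 to 19296525, averaged -0.0035 ± 0.09 (limma adjusted p = 0.982). The probe nearest to the 5′ end, at 19304052 to 19304111, read -0.013 and 0.75, so replicate 2 alone was high there. The other probes read -0.12 and -0.15, and -0.13 and 0.059.

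The NFAT genes Nfatc2 and Nfatc1 had the highest ratios after Camk2b. Nfatc2, which encodes NFAT1, a form found in resting T cells, had 242.7 and 257.1 in the deficient samples, against 111.1 and 145.7 in the control samples. Both deficient values lay above both control values. The log2 ratio was 0.65 and 0.46 and averaged 0.55 ± 0.09, or 1.47-fold (limma adjusted p = 0.0855). The separate-channel model gave an adjusted p of 0.0450, and the processed signals gave log2 ratios of 1.13 and 0.82 (limma adjusted p = 0.0594 for their mean of 0.97). This probe lies on chromosome 2 at 168224890 to 168224949 on the minus strand.

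Nfatc2 had 3 further probes. The one on its 5′ side, at 168227462 to 168227521, had 103.6 and 99.4 in the deficient samples, against 67.0 and 68.7 in the control samples, and log2 ratios of 0.27 and 0.18. Both deficient values were again above both control values, with a smaller ratio. The 2 probes on the 3′ side, at 168171046 to 168171105 and 168167615 to 168167633, were not well above background in any channel. They gave no ratio that can be set beside the others.

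Nfatc1, whose protein NFAT2 is induced in activated T cells, had 1952.2 and 1767.4 in the deficient samples, against 1451.5 and 1283.5 in the control samples. Both deficient values lay above both control values. The log2 ratio was 0.39 and 0.42 and averaged 0.40 ± 0.07 (limma adjusted p = 0.0905, and adjusted p = 0.0427 in the separate-channel model). This probe lies on chromosome 18 at 80768984 to 80769043, and the other, at 80810759 to 80810818, read 0.51 and 0.12. Both probes were thus higher on both arrays, the second mostly on replicate 1.

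Nfatc3, which encodes NFAT4, a form abundant in DP thymocytes, behaved differently on the 2 arrays. Its brightest probe had 9380.3 and 6066.3 in the deficient samples, against 6446.3 and 9423.3 in the control samples. The deficient sample was the higher one on replicate 1 and the lower one on replicate 2, at 136.5% and 63.4% of the control after normalisation. The log2 ratios of 0.45 and -0.66 averaged -0.10 ± 0.30 (limma adjusted p = 0.836). A difference between arrays as large as this was seen for 0.851% of all genes tested. A second probe, on chromosome 8 at 108981194 to 108981253, read -0.17 and -0.43, and 1 further probe was not well above background. The brightest probe lies at 109017395 to 109017454, nearer to the 3′ end, and the 2 readable probes had opposite signs on replicate 1 only.

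**Figure D3:**
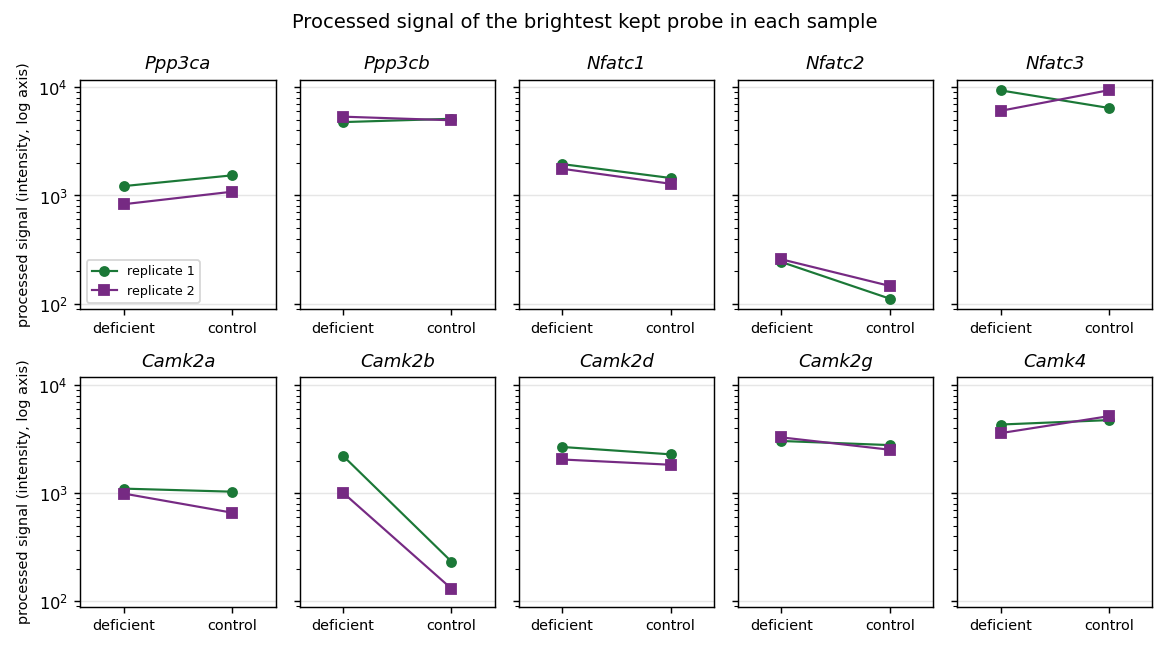
Processed signal (intensity, log axis) of the brightest probe of each gene in the deficient and the control sample of replicate 1 (green circles) and replicate 2 (purple squares), joined within each array. The lines fall steeply from deficient to control for Camk2b, fall for Nfatc1 and Nfatc2, climb for Ppp3ca and Camk4, and cross for Nfatc3 and Ppp3cb. Signals of different probes are on different scales and are not compared between panels.

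The plot of signals per sample joins the samples of an array, because they were read from the same spots. The slopes of the 2 lines are alike for Nfatc1 and Ppp3ca and opposite for Nfatc3.

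The CaM kinase II genes encode the alpha, beta, delta and gamma chains of a kinase that assembles from them. Camk2b, the beta chain, is best known in neurons. Its probe had processed signals of 2221.3 and 1012.5 in the deficient samples, against 233.2 and 131.0 in the control samples. Both deficient values lay above both control values, and both groups were brighter on replicate 1. The log2 ratio was 2.63 and 1.90 with loess, a mean of 2.27 ± 0.21 or 4.81-fold, which placed Camk2b 11th from the highest of 14921 genes. The processed signals gave 3.25 and 2.95. The ratio of Camk2b is the value it was picked for and supports no statement on the other genes.

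The Camk2b probe lies on chromosome 11 at 5869835 to 5869894 of mm8, on the minus strand. The array holds another probe that the file lists under a transcript identifier and describes as the beta chain of CaM kinase II, 7989 bases away at 5877884 to 5877943, on the 5′ side. It was found by its description after the ratio was known and is not one of the 26. Its signals were 70.5 and 66.3 in the deficient samples, against 74.7 and 71.0 in the control samples, and it was well above background in 3 of 4 channels. Both deficient values lay just below both control values, with log2 ratios of -0.048 and -0.081, and the high ratio of the 3′ probe was not seen there. Ykt6, the gene next to the 3′ probe on the opposite strand, has its nearest probe 2624 bases away and read 0.22 and 0.046 (0.13 ± 0.08, limma adjusted p = 0.357). Which transcript the 3′ probe reads was not tested.

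Camk2a, the alpha chain and the other one best known in neurons, had 1102.4 and 992.4 in the deficient samples, against 1032.8 and 660.0 in the control samples. The control value of replicate 1 lay between the deficient values, so the groups overlapped. The log2 ratios of 0.098 and 0.55 averaged 0.32 ± 0.14 (limma adjusted p = 0.228). The probe lies on chromosome 18 at 61113234 to 61113293, and a second probe was not well above background in any channel. The difference thus came mainly from replicate 2.

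Camk2d, the delta chain of many tissues, had 2675.9 and 2050.2 in the deficient samples, against 2287.6 and 1832.9 in the control samples. The deficient sample was higher on each array by little, and the groups overlapped. Its brightest probe, on chromosome 3 at 126836789 to 126836848 and nearest to the 3′ end, read 0.20 and 0.15 (0.17 ± 0.07, limma adjusted p = 0.219). Of its other 3 readable probes, 1 was higher on both arrays (0.12 and 0.11) and 2 were lower on replicate 1 and higher on replicate 2. Camk2d therefore had the smallest mean ratio of the CaM kinase II genes.

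Camk2g, the gamma chain, also found in many tissues, had 3040.5 and 3283.7 in the deficient samples, against 2785.4 and 2523.3 in the control samples. Both deficient values lay above both control values. The log2 ratios of its only probe, on chromosome 14 at 19523535 to 19523594, were 0.082 and 0.39 (0.24 ± 0.11, limma adjusted p = 0.245). As for Camk2a, replicate 2 gave the greater part of the difference.

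Camk4, a kinase of neurons and T cells that phosphorylates the transcription factor CREB, read lower with each of its 3 probes. The brightest had 4315.2 and 3591.9 in the deficient samples, against 4742.8 and 5160.7 in the control samples. Both deficient values lay below both control values. The log2 ratios of -0.16 and -0.50 averaged -0.33 ± 0.11 (limma adjusted p = 0.173). The probe on its 5′ side read -0.32 and -0.53 and the one on its 3′ side -0.49 and -0.72, so the probe standing for the gene gave the smallest difference of the 3. Their mean of -0.45 gave a limma adjusted p of 0.0895. The brightest probe lies on chromosome 18 at 33309805 to 33309864. With median centring in place of loess Camk4 read -0.0047, where the median of all genes was 0.13.

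The genes upstream and downstream of calcineurin were read from lists of known pathway genes. Counts in these lists stand beside the shares over all genes tested, which were 36.4% higher and 38.5% lower on both arrays, 15.1% higher and 14.1% lower at an unadjusted p under 0.05, and 4.74% higher and 3.82% lower by the separate-channel model. In the list of calcium release and entry 13 of 14 genes were tested, with a median log2 ratio of 0.15. Of these, 7 read higher on both arrays and 5 lower, and limma called none (unadjusted p under 0.05 for 4 higher and 0 lower, 3 called higher by the separate-channel model). Orai3, a channel protein of calcium entry, read 0.65 and 0.96 (0.81 ± 0.11, limma adjusted p = 0.0815). Itpr3, a receptor that releases calcium from stores, read 0.53 and 0.96 (0.74 ± 0.14, limma adjusted p = 0.0912). Both genes read higher in the deficient sample of each array. At the other end its relative Itpr1 read -0.13 and -0.29 (-0.21 ± 0.08, limma adjusted p = 0.208), and Atp2b1, a calcium pump of the cell surface, -0.16 and -0.19 (-0.17 ± 0.07, limma adjusted p = 0.213). The 1 other kept probe of Itpr1 averaged -0.36, and the 3 others of Atp2b1 -0.084 to 0.015.

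Among calmodulin genes, other calcineurin subunits and calcineurin regulators, 11 of 14 were tested with a median of -0.019. Of these 4 read higher on both arrays, 1 lower and 6 of opposite sign, and limma called none (unadjusted p under 0.05 for 1 higher and 1 lower, 1 called higher by the separate-channel model). Ppp3cc, the third catalytic subunit, read 0.43 and 0.62 (0.53 ± 0.09, limma adjusted p = 0.0868, and adjusted p = 0.0383 in the separate-channel model). The 3 catalytic subunit genes therefore read -0.32 for Ppp3ca, -0.0035 for Ppp3cb and 0.53 for Ppp3cc. Calm2, a calmodulin gene, read 0.46 and 0.15 (limma adjusted p = 0.182). Its other kept probe averaged -0.0043. The mean of Calm2 was 0.010 with processed signals and 0.042 after centring on genes of like intensity. Fkbp1a, the binding protein of the calcineurin inhibitor FK506, read -0.20 and -0.24 (limma adjusted p = 0.159), and Rcan1, an inhibitor that calcineurin induces, -0.25 and 0.065 (limma adjusted p = 0.592).

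Other NFAT proteins with NFAT kinases and scaffolds had 8 of 10 genes tested and a median of -0.11. Of these 2 read higher on both arrays, 4 lower and 2 of opposite sign, and limma called none (unadjusted p under 0.05 for 0 higher and 1 lower, none called by the separate-channel model). Gsk3b, a kinase that puts phosphate back on NFAT, read -0.17 and -0.32 (-0.24 ± 0.08, limma adjusted p = 0.165). Dyrk1a, a kinase of the same role, read -0.44 and -0.089 (-0.26 ± 0.12, limma adjusted p = 0.235). By the brightest probe Gsk3b and Dyrk1a were lower on both arrays. The 2 other kept probes of Dyrk1a averaged -0.076 and 0.040, and the 1 other of Gsk3b -0.14. Nfatc2ip, a protein that binds NFAT1, read 0.11 and 0.19 and the scaffold gene Homer3 0.10 and 0.11.

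Other CaM kinases, their inhibitors and substrates had 14 of 18 genes tested and a median of 0.056. Of these 4 read higher on both arrays, 4 lower and 6 of opposite sign, and limma called none (unadjusted p under 0.05 for 0 higher and 2 lower, 1 called lower by the separate-channel model). Camkk1, a kinase that activates CaM kinases I and IV, read -0.80 and -0.88 (-0.84 ± 0.07, limma adjusted p = 0.0706, and adjusted p = 0.0198 in the separate-channel model). It was the lowest of the genes on these pathway lists, and its arrays differed little. Mef2d, a transcription factor regulated by calcium signals, read -0.59 and -0.21 (-0.40 ± 0.12, limma adjusted p = 0.155), or 0.18 with median centring. Hdac4, a repressor that CaM kinases move out of the nucleus, read 0.051 and 0.64, and the CREB coactivator gene Crtc3 0.57 and 0.10, so each was high on 1 array only.

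Of 10 genes induced through calcineurin in T cells, 6 were tested, with a median of -0.056, while Il2, Il4, Ifng and Irf4 missed the filter, which asks for a signal well above background in 1 genotype on both arrays. Of the 6, 2 read higher on both arrays, 3 lower and 1 of opposite sign, and limma called none (unadjusted p under 0.05 for 1 higher and 0 lower, 1 called higher by the separate-channel model). Tnf, a cytokine gene, read 0.55 and 0.68 (0.62 ± 0.08, limma adjusted p = 0.0792, and adjusted p = 0.0379 in the separate-channel model). Nr4a1, an early response gene of receptor signalling, read 0.14 and 0.32 (limma adjusted p = 0.189). Cd40lg, the ligand of CD40, read -0.13 and -0.12 and Fasl, the ligand of Fas, -0.10 and -0.14, the second over a deficient signal well above background on 1 array. Genes that are known to depend on calcineurin thus lay on both sides of 0.

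**Figure D4:**
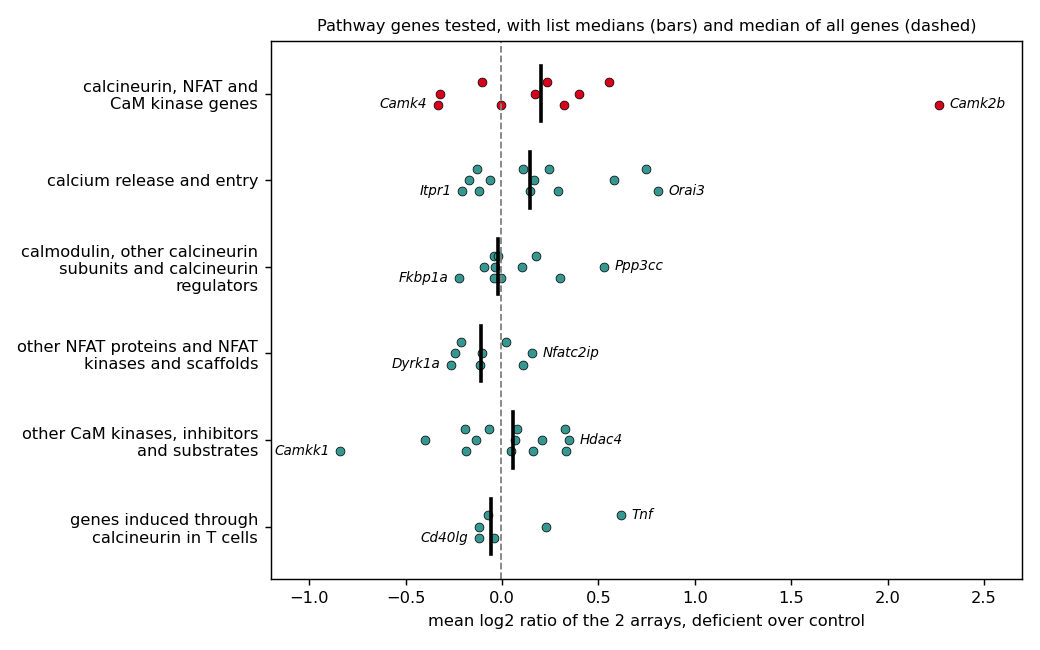
Mean log2 ratio of deficient over control (x axis) of each tested gene of the 10 (red) and of 5 lists of pathway genes (teal), with list medians as black bars, the median of all genes as a dashed line and the gene at each end of a list named. Points are spread vertically only to keep them apart. Medians of the 5 pathway lists lie between -0.11 and 0.15, and Camk2b lies beyond all pathway genes.

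In the plot of pathway lists the genes of each list lie on both sides of the median of all genes. Camkk1 is the point farthest to the left and, after Camk2b, Orai3 the farthest to the right.

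By distance over the log2 ratios of the 2 arrays, the 5 tested genes nearest to Camk2b were Scgb3a1 (2.41 and 1.82, distance 0.233), H2aj (2.11 and 1.97, 0.526), H2ac10 (2.04 and 1.94, 0.595), Retnla and Trbv14 (1.99 and 1.87, 0.646). Like Camk2b, these were read for their high ratios and carry no test. Scgb3a1 and Retnla encode secreted proteins, H2aj and H2ac10 histones of the H2A family, and Trbv14 a variable segment of the T cell receptor beta chain. Neither array gave Retnla a control signal well above background, so its place near Camk2b rests on a bound of at least 3.08-fold higher, and its mean ratio ran from 1.23 without background subtraction to 5.04 with the processed signals. H2aj and H2ac10 each had another kept probe, which read 0.14 in both cases, and the 4 others of Trbv14 read -0.14 to 1.01. The other Camk2b probe, found by its description, averaged -0.065. After centring on genes of like intensity H2aj read 1.27, H2ac10 1.18 and Trbv14 0.76, while Camk2b read 2.25. With the processed signals H2ac10, then read by another probe, was at -0.26, while Camk2b was at 3.101. Camk2b was picked for its ratio and the 5 for lying near it, so these values are a description only.

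Markers of other cell types were read beside these genes, as summed processed signals of each list on replicates 1 and 2. A sum leans on its brightest probes, and it was compared only between samples over the same probes. Of all genes tested 36.4% read higher on both arrays and 38.5% lower, against which the counts of markers below are set. Markers of NK cells summed to 11655 and 11134 in the deficient samples, against 5851 and 5130 in the control samples, with 7 of 9 tested genes higher on both arrays and 1 lower. Markers of stroma and endothelium summed to 7032 and 3926 in the deficient samples, against 4167 and 1220 in the control samples, with 6 of 8 higher and 2 lower. Macrophage and dendritic cell markers summed to 34443 and 33252 in the deficient samples, against 30263 and 12158 in the control samples, with 6 of 8 higher and 1 lower. Markers of gamma delta T cells summed to 3927 and 2589 in the deficient samples, against 1498 and 889 in the control samples, with 1 of 2 tested genes higher and 1 lower. Of the gamma delta markers tested, Cd163l1 averaged 1.47 and Blk -0.20. The 4 sums were higher in the deficient sample of each array. Separately, 6 of the 10 genes (Camk2a, Camk2b, Camk2d, Camk2g, Nfatc1 and Nfatc2) read higher on both arrays. Ppp3ca and Camk4 read lower on both, and Nfatc3 and Ppp3cb were of opposite sign. Without Camk2b, which was picked for its ratio, 5 of 9 read higher and 2 lower. A link between the marker sums and the 10 genes was not tested.

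Neuron markers, read because Camk2a and Camk2b are best known in neurons, summed to 4330 and 3229 in the deficient samples, against 4176 and 3815 in the control samples. The deficient sample was the higher one on replicate 1 and the lower one on replicate 2. Of 7 neuron markers 3 were tested, 2 of them higher on both arrays and 1 lower, and Nefl and Snap25 were not well above background in any channel. The separate-channel model called 1 neuron marker higher, against 4.74% of all genes. It also called higher 3 markers of NK cells, 1 of stroma and endothelium and 1 of gamma delta T cells, with 0 called lower in each of these lists. Of the 10 DP thymocyte markers it called 1 higher and 2 lower, the latter against 3.82% of all genes. Muscle markers summed to 248 and 212 in the deficient samples, against 301 and 261 in the control samples, with Acta1, Des and Myh4 not well above background in any channel. B cell markers summed to 3778 and 2798 in the deficient samples, against 5918 and 3497 in the control samples, with Cd79a not well above background in any channel. Over the 4 tested erythroid markers the sums were 71804 and 108126 in the deficient samples, against 127589 and 20186 in the control samples. All 4 were of opposite sign on the 2 arrays, with medians of -0.40 on replicate 1 and 2.09 on replicate 2. The part of any of these cells in the ratios of the 10 genes was not tested.

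Each of the 10 genes was also read under 11 other settings of the processing. Camk2b ranged from 1.84 to 3.101 and Nfatc2 from 0.37 to 0.97, the lowest in each case without background subtraction and the highest with the processed signals. Nfatc1 ranged from 0.36 to 0.60, Camk2a from 0.29 to 0.50, Camk2g from 0.23 to 0.52 and Camk2d from 0.084 to 0.39. These 6 genes, of which Camk2b was picked for its high ratio, stayed above 0 under every one of those settings. Ppp3ca, at -0.36 to -0.15, and Camk4, at -0.45 to -0.0047, stayed below 0. Nfatc3, at -0.20 to 0.33, and Ppp3cb, at -0.0045 to 0.33, crossed it. Dropping the filter, asking for both channels, fitting over probes and separate channels left the ratios of the 10 genes unchanged, so no sign could turn there. The value table nearly repeated the processed signals. The settings are therefore not independent checks.

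**Figure D5:**
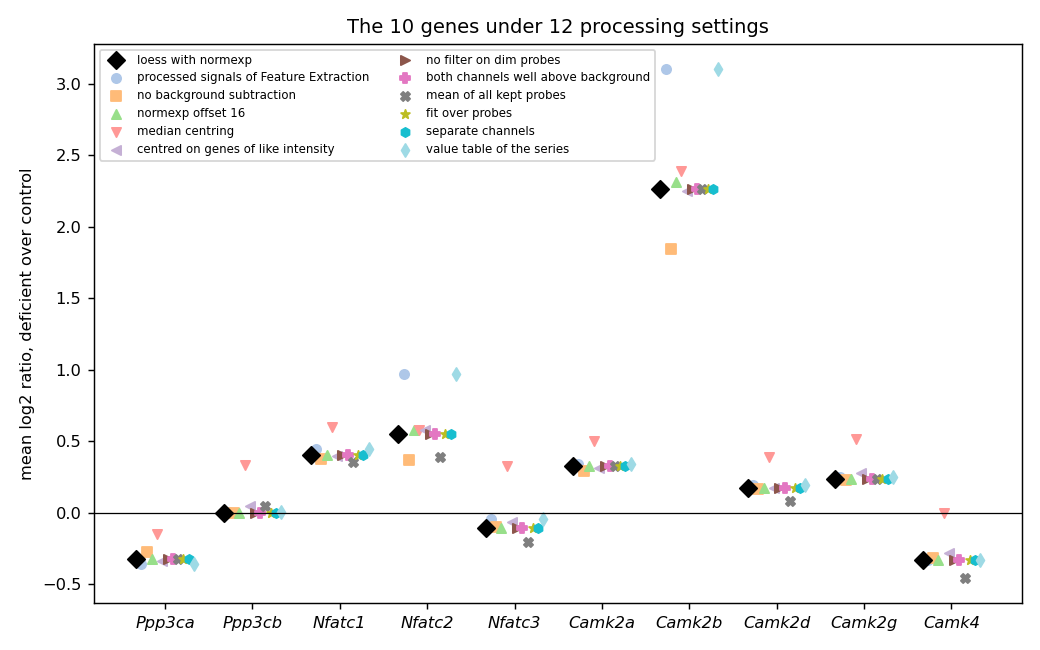
Mean log2 ratio of deficient over control (y axis) of each of the 10 genes with loess and normexp (black diamonds) and under 11 other settings of background correction, normalisation, probe filter, probe choice and model (coloured symbols). Median centring, which lifts the median of all genes to 0.13, gives the highest value for each gene except Camk2b and Nfatc2, which are highest with the processed signals.

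In the plot of settings the value farthest from the black diamond comes from the processed signals for Camk2b and Nfatc2 and from median centring for the other 8.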

How the data were processed

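The authors scanned 2 arrays of an Agilent 2-colour mouse design and read them with Feature Extraction 9.5.3.1, per the submitters' processing notes. The deposited mean and local background signals are raw scanner intensity, per the file headers. For the deposited processed signals, also intensity, the software corrected background and dye. The deposited log10 ratio is of processed Cy5 over processed Cy3. The deposited value table, of unstated scale, equals that log10 ratio within 0.005, centred on 0 for each array. Coordinates are those of mm8 in the files.

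From the raw signals, background was corrected by normexp with an offset of 50, and log2 ratios were normalised by loess array by array (controls given weight 0). The tools were limma 3.58.1 and statmod 1.5.0 under R 4.3.3. Both arrays lay on 1 slide. Each held 45018 spots, of which 108 and 116 were left out as flagged by the software. A probe had to be well above background in 1 genotype on both arrays, which 21539 of 41174 were. Symbols came from the RefSeq gene table by accession, symbol or synonym. For the 10 genes 19 probes matched by accession and 7 by symbol. The brightest kept probe stood for a gene, and the mean ratio was tested against 0 with limma and Benjamini-Hochberg adjustment (1 residual degree of freedom, prior 2.51).

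The members and lists were chosen with earlier results of these data known. The text names the 10 genes with every probe, the 2 highest and 2 lowest tested genes of each pathway list, the 5 genes nearest to Camk2b, and Bcl11b. The second Camk2b probe and Ykt6 were added after the data were seen. No gene symbol of Atp2b4, Dyrk2 or Crtc1 was matched to a probe here. Alternatives changed the background correction, normalisation, filter, choice of probe and model.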

Additional observations from a re-analysis of the deposited data

How the results depend on the processing

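With 1 residual degree of freedom the test of single genes had little precision, dim probes such as those of Nfatc2 depend on the background correction, and without a dye swap probe-specific dye bias could not be measured. The main test is already paired, since it is of the ratio within each array, which pairs its deficient and control samples. Nothing further pairs the 2 ratios for another fit. Over all genes the count called was 0 and became 132 with processed signals, 982 with median centring, 1277 with separate channels and 124 with the value table. Of the 9 members tested, 2 were called with separate channels and 0 under the other settings with a test. Median centring gave a median of 0.44 for all 10 members, Camk2b included, where the main setting gave 0.20. It gave 0.40 for calcium release and entry, 0.38 for the calmodulin list, 0.054 for the NFAT list and 0.30 for the CaM kinase list. The median of all genes was then 0.13. The calcium list read 0.15 with processed signals, 0.14 without background subtraction, 0.15 after centring on genes of like intensity, 0.15 with the value table and 0.11 without either replicate. The calmodulin list read 0.047 with the mean of all kept probes and -0.011 to 0.026 when 1 replicate was left out. Leaving out 1 replicate gave -0.11 to -0.0079 for the NFAT list and -0.059 to 0.090 for the CaM kinase list. Genes induced through calcineurin read -0.16 with processed signals, -0.16 with the value table and 0.038 without the filter on dim probes. Turned signs were -0.065 for the second Camk2b probe and 0.33 with median centring for Nfatc3. Ppp3cb turned to 0.0043 with processed signals, 0.33 with median centring, 0.044 after centring on genes of like intensity, 0.048 with the mean of all kept probes and 0.0043 with the value table. With median centring Itpr1 turned to 0.15 and Mef2d to 0.18. Leaving out 1 replicate gave a range of -0.66 to 0.45 for Nfatc3, -0.10 to 0.097 for Ppp3cb and -0.25 to 0.065 for Rcan1. H2ac10 turned to -0.26 with processed signals and -0.26 with the value table. The causes were not tested, except that H2ac10 was read there by another probe. Over the named genes, 333 values with an adjusted p kept their direction and side of the threshold and 29 passed it with the same direction. Apart from processed signals, median centring, separate channels and the value table, each setting called 0 of all genes, as the main test did. Keeping the side of the threshold was fixed in advance there, so the 333 do not measure stability. The 333 and the 29 include Scgb3a1, H2aj, H2ac10, Retnla and Trbv14, which were read for their high ratios on these same arrays. Most of the 29 came from these genes, so their passes are a description without a test. Members gave 2 of the 29, Nfatc1 and Nfatc2 with separate channels.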
